A study of Homo sapiens with 72 samples.

Results

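The 30 genes of cholesterol and fatty acid synthesis described here were taken by symbol from a table of raw counts with 44659 gene rows, of which 29493 had at least 1 count. They were the enzymes from acetyl-CoA to cholesterol and to desaturated fatty acids, the sterol carrier STARD4 and the 4 regulators SREBF1, SREBF2, SCAP and INSIG1. They were picked by their place in the pathway, although earlier results of these data were known when the list was made. The table held 72 libraries of cytoplasmic RNA from A375, an established human skin melanoma cell line, made with QuantSeq, which sequences the 3′ end of each polyadenylated RNA. In the siRNA experiment, cells received a pool of 2 siRNAs against CTU2 (siCTU2) or the single control siRNA GL2 (siGL2), and inhibitors were added 42 h after transfection. In the medium experiment, cells were kept without glutamine (mQ) or with it (pQ) for 18 h before the inhibitors. In every group the cells then received triptolide at 25 µM (spelled tryptolide in the labels, T arm) or triptolide with cycloheximide at 100 µg/ml (TCHX arm), and were collected at once (0 h), after 3 h or after 5 h, with 3 libraries in each of the 24 groups. Triptolide stops transcription, so the loss of an RNA after 0 h follows its decay, and cycloheximide stops translation. CTU2 is part of the enzyme that thiolates the wobble uridine of the tRNAs for lysine, glutamate and glutamine. The 2 siRNAs of the siCTU2 pool are printed as designed, 5′ to 3′, without their overhangs and with nothing marked in capitals:
siCTU2#1: cuaucaagcucaugaccaa
siCTU2#2: gcgugaacaugaaggacuu

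Cells control these genes through the SREBP proteins, which SREBF1 and SREBF2 encode. SCAP carries the SREBP precursors from the endoplasmic reticulum to the Golgi when sterols are low, where proteases release the part that enters the nucleus, and INSIG1 holds SCAP back when sterols are high. SREBF2 is best known for driving the cholesterol enzymes and SREBF1 for driving fatty acid synthesis, and both act through sterol response elements beside NF-Y and Sp1 sites.

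Counts were enough to test 27 of the 30 genes. LSS, lanosterol synthase, had 4 counts in all 72 libraries, NSDHL, which removes a carboxyl carbon from sterol precursors, had 62, and ACACA, the acetyl-CoA carboxylase that makes malonyl-CoA, had 343. LSS, ACACA and FDFT1 have a second row in the table, LSS_1, ACACA_1 and FDFT1_1, with 56, 143 and 1661 counts, and since reads may be split between such rows, the levels of these genes are uncertain. FDPS and HSD17B7 have a pseudogene row each, FDPSP2 and HSD17B7P2, and each of these rows held 6 counts. In GENCODE v44, FADS1 and FADS2 lie on opposite strands and overlap, and IDI1, FDPS, CYP51A1, SREBF1 and ACAT2 also have another gene on the opposite strand near their 3′ end. Whether counting used the strand was not given in the sources used here, so reads of such pairs may not have been told apart. Values are CPM, counts per 1000000 counts of the library, which are shares of a library and are not scaled by gene length. In such bulk samples, less RNA per cell and fewer cells that hold it cannot be told apart.

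Promoter sequence was found for 26 of the 30 genes in a RefSeq table of GRCh38.p14 that holds 250 bases before and 50 bases after each start. The windows below are shown because SREBF2 was the 1 member with a match to the sterol response element TCACNCCAC on either strand, and because HMGCS1, INSIG1, STARD4 and EBP, which were lower without glutamine, each held ATTGG, the core of the NF-Y site. Each runs 5′ to 3′ on the strand of its gene and ends upstream of the annotated start, and capitals mark TCACNCCAC in SREBF2 and ATTGG, or its reverse complement CCAAT, in the others.
SREBF2: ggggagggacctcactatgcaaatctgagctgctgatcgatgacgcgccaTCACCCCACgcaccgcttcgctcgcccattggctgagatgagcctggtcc
HMGCS1: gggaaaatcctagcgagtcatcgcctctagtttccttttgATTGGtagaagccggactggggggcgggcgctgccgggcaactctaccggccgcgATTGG
INSIG1: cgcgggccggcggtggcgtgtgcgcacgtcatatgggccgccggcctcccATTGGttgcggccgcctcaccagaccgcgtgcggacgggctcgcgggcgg
STARD4: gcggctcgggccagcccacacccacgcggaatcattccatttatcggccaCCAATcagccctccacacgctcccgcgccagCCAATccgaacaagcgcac
EBP: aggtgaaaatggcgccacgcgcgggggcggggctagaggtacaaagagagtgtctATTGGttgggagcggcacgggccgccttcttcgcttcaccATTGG
In GRCh38.p14 these windows are chr22:41832922-41833021, plus strand, for SREBF2, chr5:43313508-43313607, minus strand, for HMGCS1, chr7:155297658-155297757, plus strand, for INSIG1, chr5:111512647-111512746, minus strand, for STARD4, and chrX:48521683-48521782, plus strand, for EBP. TCACNCCAC was found in 1.15% of all 27305 promoters of the table and in 1 of the 26 members. ATTGG stood in 17 of the 26 members (65.4%), against 35.7% of all promoters and 37.4% of the 9755 promoters of tested genes. The 17 included TM7SF2, which was higher without glutamine, and did not include FADS1, which was higher too. The Sp1 core GGGCGG stood in 24 of the 26 (92.3%), against 44.6% and 69.4%. The motifs were searched on both strands and are different letter strings, and a match is a description of the window.

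The libraries held 5987692 to 15534331 counts. CTU2 was at 1.76 ± 1.04 CPM (SD, n = 3) in siCTU2 and at 22.5 ± 1.58 CPM in siGL2 at 0 h in the T arm, but the TCHX library of siCTU2 at 5 h, replicate 3, held 10.4 CPM against its label. That library, the mQ T library at 5 h, replicate 3, and the pQ TCHX library at 0 h, replicate 3, stood apart with 19896 to 20364 detected genes, against 15507 to 17495 in the other 69. Of the melanocyte genes, MITF, SOX10 and S100B were expressed in every 0 h library of the T arm, at 109.7 CPM or more, PMEL was at 2.21 to 8.09 CPM, and MLANA and TYR were at 1.02 CPM or less, while markers of keratinocytes, blood, liver and fat were at 0.99 CPM or less. Of the 4 fibroblast markers, COL1A1, COL1A2 and DCN were at 0.53 CPM or less and LUM was at 2.23 to 8.86 CPM. The labels do not say that replicates came from separate cultures, so p-values measure the spread between these libraries.

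The 3 libraries that stood apart also differed in the sterol and fatty acid genes. HMGCS1 was at 75.9, 70.2 and 73.3 CPM in them and at 9.44 to 53.1 CPM in the other 69. SCD, the stearoyl-CoA desaturase, was at 136, 156 and 137 CPM, against 55.3 to 112 CPM. In all, 5 of the 30 genes (HMGCS1, SQLE, TM7SF2, SCD and FADS2) were higher in each of the 3 than in any other library, as were 421.0 of all 14713.0 tested genes (2.86%). None of the 3 was at 0 h in the T arm or at 3 h, so they entered neither the 0 h comparisons nor the means behind the 3 h changes, although the decay fits, which hold all 18 libraries of a condition, share 1 estimate of the spread with them. Replicate 3 at 5 h also differed from replicates 1 and 2 for some members in siGL2 and pQ, in siCTU2 (T arm) and in mQ (TCHX arm). In replicates 1, 2 and 3 of the T arm at 5 h, CYP51A1 was at 47.2, 49.0 and 22.4 CPM in siGL2 and at 53.0, 49.3 and 24.7 CPM in pQ. ELOVL6 was at 42.0, 36.4 and 46.3 CPM in siGL2. SREBF1 was at 23.2, 16.9 and 3.77 CPM in siGL2 and at 24.7, 20.8 and 5.34 CPM in siCTU2. In the TCHX arm of mQ at 5 h SREBF1 was at 25.2, 21.2 and 5.11 CPM. The cycloheximide estimates average 3 h and 5 h, so they include this replicate.

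The first comparison asks how these genes differed between siCTU2 and siGL2 before any inhibitor acted. The only siRNAs against CTU2 were in this pool, so loss of CTU2 and other effects of the siRNAs cannot be told apart here. The paper compared the individual siRNAs by RT-qPCR, on a few mRNAs that are not among the members. In siCTU2 at 0 h, 9 of the 27 tested genes passed the test, 2 higher and 7 lower, and the lower ones were the desaturase FADS1, the mevalonate enzymes HMGCS1, MVK, MVD and IDI1, the sterol enzyme SC5D and the fatty acid synthase FASN. Over all 12292 genes tested, 36% passed (17.8% higher and 18.2% lower), so the 9 of 27 are near the background. The median change of the 27 was -0.21 (log2), against 0.00478 over all genes tested, with 10 estimates above 0 and 17 below it.

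FADS1, the delta-5 desaturase of polyunsaturated fatty acid synthesis, was at 60.3, 78.1 and 72.5 CPM in the siCTU2 libraries and at 117, 143 and 121 CPM in the siGL2 libraries. All siCTU2 values were below all siGL2 values, and the change passed the test (edgeR log2 fold change -0.85 with an SE of 0.10, adjusted p = 3.76e-06). Its call also held under all 10 alternatives, and in the TCHX arm at 0 h the means were 76.6 ± 8.11 and 117 ± 14.4 CPM (SD, n = 3). FADS2, the delta-6 desaturase beside it on chromosome 11, was at 7.69 ± 0.970 and 8.85 ± 2.23 CPM and did not pass (edgeR log2 fold change -0.21 with an SE of 0.23, adjusted p = 0.514). FASN, the fatty acid synthase, fell, with means of 500.4 ± 1.55 CPM in siCTU2 and 596 ± 53.1 CPM in siGL2 (edgeR log2 fold change -0.26 with an SE of 0.068, adjusted p = 0.00695). ELOVL6, SCD and ACLY, which elongate, desaturate and supply acetyl-CoA for the chain, had log2 fold changes of -0.22, 0.050 and 0.11 and did not pass.

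Of the 7 genes of the mevalonate steps, 4 fell and none rose, where 18.2% of all genes fell and 17.8% rose. IDI1, which isomerises isopentenyl diphosphate, was at 17.0, 16.8 and 17.6 CPM in siCTU2 and at 31.9, 28.6 and 28.8 CPM in siGL2 (edgeR log2 fold change -0.80 with an SE of 0.13, adjusted p = 0.000115). HMGCS1, the HMG-CoA synthase, was at 36.7, 33.8 and 36.9 CPM against 48.5, 53.1 and 45.9 CPM (edgeR log2 fold change -0.46 with an SE of 0.11, adjusted p = 0.00277). The siCTU2 and siGL2 values did not overlap for either gene. MVK, the mevalonate kinase, was at 8.43, 10.9 and 13.5 CPM against 18.8, 16.7 and 17.8 CPM, with no overlap (edgeR log2 fold change -0.69 with an SE of 0.18, adjusted p = 0.00691). MVD, the mevalonate diphosphate decarboxylase, fell, with means of 8.75 ± 1.63 CPM in siCTU2 and 13.3 ± 2.44 CPM in siGL2 (edgeR log2 fold change -0.62 with an SE of 0.21, adjusted p = 0.0286). PMVK, the phosphomevalonate kinase between MVK and MVD in the pathway, had a log2 fold change of -0.24 (edgeR adjusted p = 0.197), FDPS, which makes farnesyl diphosphate, of 0.12, and the thiolase ACAT2 of -0.10.

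In the sterol steps, SQLE, the squalene epoxidase, had a log2 fold change of -0.37 (edgeR adjusted p = 0.0837) and FDFT1, the squalene synthase, of -0.44 with an SE of 0.41. SC5D, the lathosterol desaturase, fell, with means of 16.8 ± 1.47 CPM in siCTU2 and 24.5 ± 3.58 CPM in siGL2 (edgeR log2 fold change -0.55 with an SE of 0.15, adjusted p = 0.0084). TM7SF2, a sterol delta-14 reductase, rose, and was at 5.90, 2.77 and 4.90 CPM in siCTU2 and 1.04, 0.565 and 1.85 CPM in siGL2 (edgeR log2 fold change 1.97 with an SE of 0.46, adjusted p = 0.00245). The TM7SF2 groups did not overlap, but they rest on 5 to 63 counts a library over the 12 libraries at 0 h in the T arm. The estimates of CYP51A1, the lanosterol demethylase, MSMO1, HSD17B7 and EBP, which act on later intermediates, and DHCR7, which makes cholesterol in the last step, lay between -0.29 and 0.21 and did not pass.

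Of the regulators, SREBF1 was at 27.5, 19.5 and 24.8 CPM in siCTU2 and at 13.3, 16.3 and 16.7 CPM in siGL2, with no overlap (edgeR log2 fold change 0.63 with an SE of 0.16, adjusted p = 0.00552). SREBF2 was at 26.2 ± 5.11 and 26.2 ± 0.790 CPM, a difference within its error (log2 fold change -0.0065, SE 0.15). INSIG1 had a log2 fold change of -0.31 (edgeR adjusted p = 0.0746), and SCAP and STARD4 of 0.18 and 0.062. Without replicate 1 in both groups 3 of the 9 calls were left (FADS1, IDI1 and HMGCS1), and the adjusted p values of MVK, MVD, TM7SF2, SC5D, SREBF1 and FASN were 0.106, 0.195, 0.0692, 0.05006, 0.144 and 0.0955. Without replicate 2, HMGCS1, MVD and SC5D did not pass (edgeR adjusted p = 0.0587, 0.0636 and 0.0837). Over all genes 23.3% and 26.8% passed without replicate 1 and without replicate 2. In the TCHX arm at 0 h, MVK, MVD, TM7SF2, SREBF1 and FASN did not pass either (edgeR adjusted p = 0.132, 0.451, 0.302, 0.52 and 0.137).

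**Figure D1:**
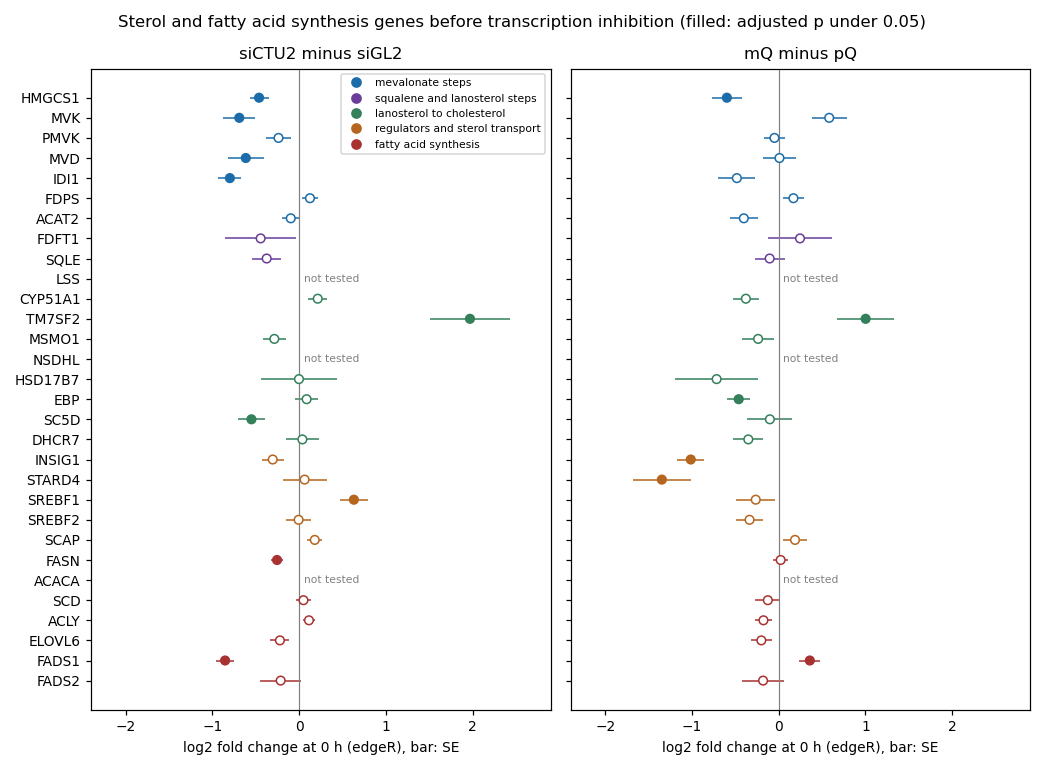
log2 fold change (points) with its SE (bars) of each member at 0 h in the T arm, siCTU2 against siGL2 on the left and mQ against pQ on the right, coloured by role and filled where the edgeR adjusted p was under 0.05. FADS1, IDI1, MVK and MVD lie below 0 on the left, STARD4 and INSIG1 lie farthest below 0 on the right, and LSS, NSDHL and ACACA were not tested.

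The second comparison asks the same of 18 h without glutamine. In mQ at 0 h, 6 of the 27 tested genes passed, 2 higher (TM7SF2 and FADS1) and 4 lower (STARD4, INSIG1, HMGCS1 and EBP). Over all 12374 genes tested 24.8% passed (12.5% higher and 12.4% lower), so 6 of 27 is again near the background. The median change of the 27 was -0.18 (log2), against 0.00976 over all genes, with 8 estimates above 0 and 19 below it.

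The 2 largest falls were in genes that handle sterols and are not enzymes of the synthesis. INSIG1 was at 15.7, 13.8 and 15.2 CPM in mQ and at 33.4, 32.9 and 27.4 CPM in pQ (edgeR log2 fold change -1.02 with an SE of 0.15, adjusted p = 0.00101). STARD4, which moves cholesterol between membranes, was at 2.23, 2.95 and 1.57 CPM in mQ and at 7.30, 5.86 and 4.95 CPM in pQ (edgeR log2 fold change -1.35 with an SE of 0.34, adjusted p = 0.0129). The highest mQ library was below the lowest pQ library for both genes, and the same held in the TCHX arm at 0 h, where INSIG1 was at 16.1 ± 0.894 and 34.0 ± 3.09 CPM and STARD4 at 2.36 ± 0.425 and 5.52 ± 0.597 CPM (SD, n = 3). INSIG1 lost its call only when tested against a 1.5-fold change (edgeR adjusted p = 0.065), and STARD4 there and without replicate 1 (edgeR adjusted p = 0.148 and 0.156). STARD4 rests on 14 to 31 counts a library in mQ and 60 to 68 in pQ. SREBF2, SREBF1 and SCAP had log2 fold changes of -0.34, -0.27 and 0.19 and did not pass.

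HMGCS1 was at 17.1, 13.2 and 16.5 CPM in mQ and at 21.3, 26.7 and 25.4 CPM in pQ, with no overlap (edgeR log2 fold change -0.60 with an SE of 0.17, adjusted p = 0.0236). In the TCHX arm it did not pass (edgeR adjusted p = 0.158), where pQ replicate 3 was the library at 73.3 CPM, and without that library the log2 fold change was -0.22 (edgeR adjusted p = 0.407). EBP, the sterol isomerase, was at 38.9, 46.8 and 37.4 CPM against 61.7, 62.6 and 52.1 CPM, again with no overlap (edgeR log2 fold change -0.46 with an SE of 0.13, adjusted p = 0.0258), and it did not pass in the TCHX arm (edgeR adjusted p = 0.216, and 0.273 without pQ replicate 3). IDI1, ACAT2 and CYP51A1 had log2 fold changes of -0.48, -0.40 and -0.38 that passed at an unadjusted p under 0.05 but not after adjustment (edgeR adjusted p = 0.117, 0.0909 and 0.0855). HSD17B7, a sterol ketone reductase, and DHCR7 had estimates of -0.72 (SE 0.48) and -0.35 (SE 0.17), and MSMO1, SQLE and SC5D of -0.24, -0.11 and -0.10, with no call. MVK stood at 0.58 (edgeR adjusted p = 0.0547), the highest estimate of the mevalonate steps.

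FADS1 was at 130.1, 163 and 158 CPM in mQ and at 114, 135 and 116 CPM in pQ, where the lowest mQ library was below the highest pQ library (edgeR log2 fold change 0.36 with an SE of 0.12, adjusted p = 0.0488). TM7SF2 was at 4.83, 5.80 and 3.60 CPM against 2.25, 2.25 and 2.84 CPM (edgeR log2 fold change 1.00 with an SE of 0.33, adjusted p = 0.0449). Both were near the threshold, and in the TCHX arm neither passed, the TM7SF2 estimate there being -0.59, with pQ replicate 3 at 11.7 CPM, and 0.72 without that library. FASN, SCD, ACLY, ELOVL6 and FADS2 lay between -0.20 and 0.022 and did not pass. Without replicate 1 in both groups INSIG1 was the 1 call left of the 6, and the adjusted p values of HMGCS1, EBP, TM7SF2 and FADS1 were 0.0956, 0.273, 0.224 and 0.151. Over all genes 3.97% passed then. Without replicate 2, HMGCS1 and TM7SF2 did not pass (edgeR adjusted p = 0.14 and 0.265), and without replicate 3, HMGCS1, EBP and FADS1 did not (0.0763, 0.0514 and 0.205).

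**Figure D2:**
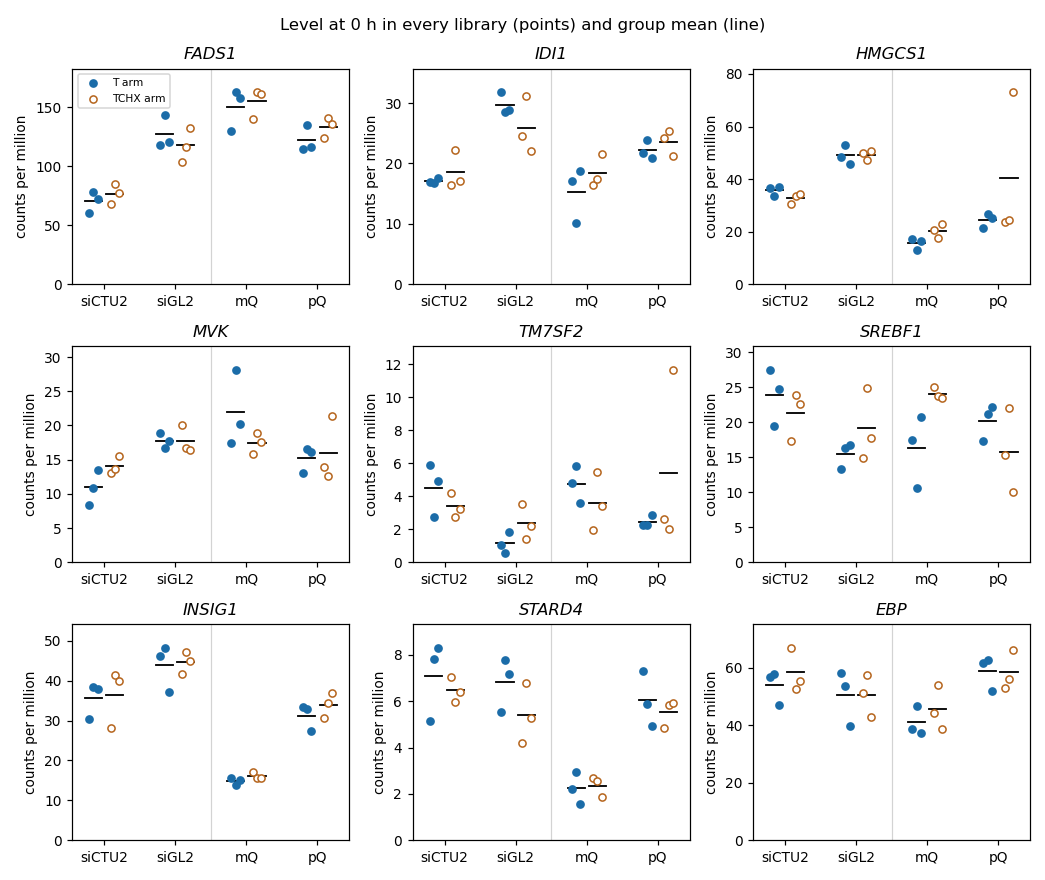
CPM of 9 members at 0 h in every library (points, 3 in each group; filled, T arm; open, TCHX arm), with the mean of each group as a line, on axes from 0. The siCTU2 points of FADS1 lie below the siGL2 points in both arms, the mQ points of INSIG1 and STARD4 lie below the pQ points in both arms, and the pQ TCHX library at 73.3 CPM stands out for HMGCS1.

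Whether the 2 treatments changed a gene differently was tested as the difference of the log2 changes, siCTU2 against siGL2 minus mQ against pQ, and 7 of the 27 genes passed, 5 higher and 2 lower, against 32% of the 12950 genes tested (15.9% higher and 16.1% lower). FADS1 and MVK had the lower change in the siRNA experiment, with differences of -1.22 (SE 0.17, edgeR adjusted p = 3.03e-05) and -1.28 (SE 0.28, edgeR adjusted p = 0.00206). The difference of FADS1 passed under all 11 alternatives. Its fall in siCTU2 held throughout, but its rise without glutamine was near the threshold and lost its call under 6 of 11 alternatives. STARD4, SREBF1, INSIG1, CYP51A1 and EBP had the lower change without glutamine, with differences of 1.40, 0.90, 0.71, 0.59 and 0.55 (edgeR adjusted p = 0.0139, 0.0255, 0.0107, 0.0215 and 0.0437). Without replicate 1 only FADS1 and MVK passed, and the adjusted p values of INSIG1, STARD4, SREBF1, CYP51A1 and EBP were 0.0537, 0.0986, 0.176, 0.176 and 0.21. Without replicate 2 CYP51A1, EBP and INSIG1 did not pass (edgeR adjusted p = 0.12, 0.0552 and 0.0622), and without replicate 3 EBP and STARD4 did not (0.0631 and 0.0796). In the TCHX arm SREBF1 turned to -0.48 and MVK, CYP51A1 and EBP did not pass. For HMGCS1, which was lower in both treatments, the difference was 0.14 with an SE of 0.19 and did not pass.

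The same pathway was also read in 48 other genes, which hold the remaining enzymes, the SREBP proteases, sterol uptake and export, nuclear receptors and the supply of acetyl-CoA and NADPH. In siCTU2 at 0 h, 9 of the 43 tested rose and 11 fell, where 17.8% of all genes rose and 18.2% fell. In mQ 7 of the 44 tested rose and 7 fell, where 12.5% and 12.4% of all genes did. Whether these shares differed from those of all genes was not tested. In siCTU2, IDH1, the cytosolic isocitrate dehydrogenase that makes NADPH, had the largest fall (edgeR log2 fold change -3.79 with an SE of 0.18, adjusted p = 2.54e-11), and MBTPS1, the site-1 protease that cuts SREBP precursors, fell too (-0.63). NR1H3, the liver X receptor alpha, and COQ2, of ubiquinone synthesis, fell by 0.91 and 0.87 on the log2 scale. FADS3, which lies next to FADS1 and FADS2, rose in both treatments, by 1.63 in siCTU2 and 0.61 in mQ. In siCTU2 the acyl-CoA synthetase ACSL1 and the farnesyltransferase subunit FNTA rose by 0.65 and 0.58. In mQ, SCD5, a second stearoyl-CoA desaturase, SOAT1, which esterifies cholesterol, and ACSL4, an acyl-CoA synthetase, had log2 fold changes of -0.81, -0.78 and -0.71, while ACSS2, which makes acetyl-CoA from acetate, and the phosphatidate phosphatase LPIN1 rose by 0.85 and 0.55.

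Decay was read as the change from 0 h to 3 h in the T arm, on a scale set, after the study's methods, by genes whose share of the counts was at least 10% higher at 3 h or 5 h than at 0 h in every replicate. This choice sets the level of every decay estimate, so a member is best read against the median of all genes. Over 3 h in triptolide the sterol and fatty acid genes changed by a median no lower than that of all genes, and INSIG1 had the lowest estimate in siGL2, mQ and pQ. In siGL2, 5 of the 27 fell (INSIG1, MSMO1, ELOVL6, SQLE and FDPS), against 28.6% of all 13161 genes. In siCTU2 2 fell (INSIG1 and FASN), against 36% of 13638. In mQ 13 fell, against 55.4% of 13442, and in pQ 18, against 55.2% of 13347. None rose. The median log2 change of the members was -0.37, -0.32, -0.55 and -0.61 in siCTU2, siGL2, mQ and pQ, against -0.55, -0.47, -0.71 and -0.69 over all genes. Relative to that median, 21, 20, 17 and 17 of the 27 had lost less and 6, 7, 10 and 10 had lost more, and these counts were the same with TMM scaling, which puts the median of all genes near 0.

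INSIG1 stood at 49.1%, 40.3% and 23.6% of its 0 h mean in the 3 pQ libraries at 3 h and at 63.2%, 47.1% and 48.9% in the siGL2 libraries. All 6 values were below the lowest 0 h value of their condition. The log2 changes were -1.41 in pQ, -1.30 in mQ, -0.91 in siGL2 and -0.66 in siCTU2 (edgeR adjusted p = 0.000374, 0.015, 0.0117 and 0.0338), which is -0.72, -0.59, -0.44 and -0.11 from the median of all genes. At 5 h 36.3% ± 9.48 (SD, n = 3) was left in siGL2 and 23.4% ± 6.98 in pQ. With TMM the fall of INSIG1 in pQ was the 1 call kept of all the members in the 4 conditions (log2 change -0.73, edgeR adjusted p = 0.0333).

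ELOVL6, which elongates palmitate, stood at 63.8%, 70.1% and 63.1% of its 0 h mean in siGL2 and at 62.3%, 71.4% and 51.3% in pQ (log2 changes -0.61 and -0.70, edgeR adjusted p = 0.00586 and 0.00159). MSMO1, the sterol C4 methyl oxidase, stood at 54.3%, 66.6% and 57.1% in siGL2 and at 50.0%, 56.5% and 41.2% in pQ (log2 changes -0.75 and -1.02, edgeR adjusted p = 0.0208 and 0.00216). MSMO1 was thus below the median of all genes in both, and ELOVL6 was below it in siGL2 and next to it in pQ. SQLE and FDPS kept 71.1% ± 14.0 and 77.0% ± 4.49 in siGL2 (log2 changes -0.49 and -0.38, edgeR adjusted p = 0.0467 for both). FASN and EBP kept 74.2% ± 3.19 and 67.8% ± 10.6 in pQ (log2 changes -0.43 and -0.56, edgeR adjusted p = 0.00689 and 0.0116), and both had lost less than the median gene there. With TMM, which shifts all genes alike, FDPS in siGL2 and FASN and EBP in pQ stood at 0.11, 0.27 and 0.13. TM7SF2, with few counts, read 127%, 302% and 224% in siGL2 and did not pass.

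Across roles, 6 of the 7 genes of the mevalonate steps fell in each of mQ and pQ, and of the 6 tested genes of fatty acid synthesis 3 fell in mQ and 5 in pQ, where 55.4% and 55.2% of all genes fell. The number of calls changed with the replicate left out. Without replicate 1, 2 or 3 of each group, 0, 0 and 9 genes fell in siCTU2, 0, 0 and 13 in siGL2, 3, 0 and 14 in mQ and 3, 2 and 18 in pQ. The share of all genes called moved with them, to 8.53%, 21.5% and 43.3% in siCTU2, 10.4%, 9.61% and 46.8% in siGL2, 29.6%, 15.3% and 57.6% in mQ and 24.2%, 26.3% and 64.4% in pQ. Same-numbered libraries deviated together in siCTU2 and pQ, and with the replicate number as a block 4 genes fell in siCTU2, with MSMO1 and ELOVL6 added, and 22 in pQ, with CYP51A1, SC5D, SREBF1 and SREBF2 added. The block called 40.5% of all genes in siCTU2 and 70.0% in pQ. With the libraries that stood apart left out the counts were 5 in siCTU2, 14 in mQ and 18 in pQ, where 39.8%, 61.0% and 56.8% of all genes were called. No member differed in decay between siCTU2 and siGL2 or between mQ and pQ (edgeR, 28 tested in each). Over all genes 0 of 14259 and 0 of 14177 passed, and 1 and 0 members had an unadjusted p under 0.05. DESeq2 also gave 0 members in both.

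**Figure D3:**
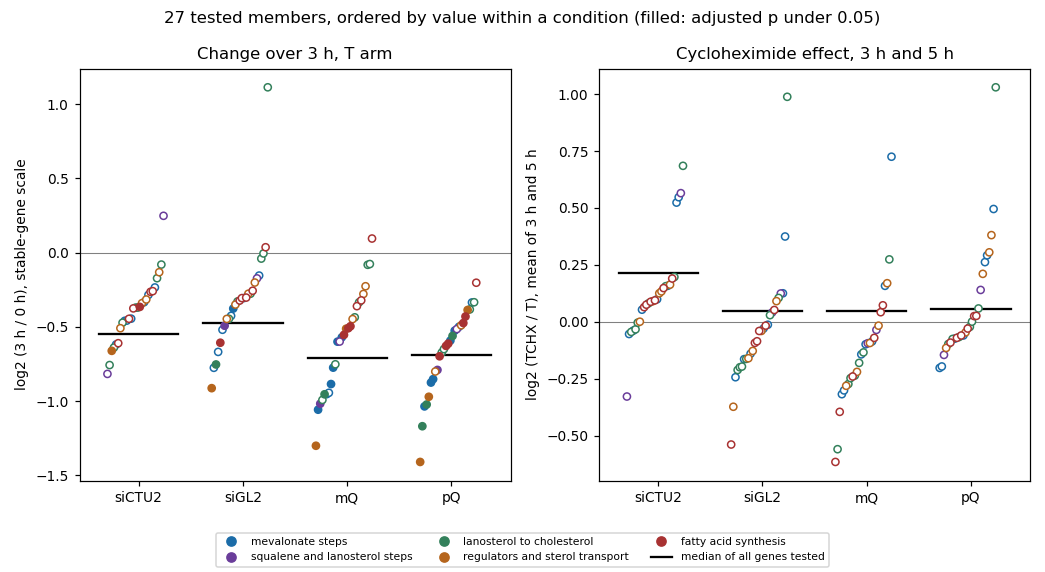
Left, log2 change from 0 h to 3 h in the T arm; right, log2 ratio of the TCHX to the T arm, mean of 3 h and 5 h; each point is 1 of the 27 tested members, filled where the edgeR adjusted p was under 0.05, and the black line is the median of all genes tested. Filled points are found only on the left, INSIG1 is the lowest point there in siGL2, mQ and pQ, and on the right 18 to 23 members lie below the line.

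The effect of cycloheximide was the TCHX level over the T level, as the mean of 3 h and 5 h, where a positive value means more RNA left when translation was stopped. None of the 27 members passed in siCTU2, siGL2, mQ or pQ (edgeR), while 21.1%, 12.7%, 5.24% and 12.7% of all genes did, nearly all of them higher. At an unadjusted p under 0.05 there were 2, 2, 5 and 2 members. DESeq2 called 0, 0, 1 and 0. The median effect on the members was 0.094, -0.040, -0.13 and -0.029, against 0.22, 0.046, 0.048 and 0.058 over all genes. In each condition more members were below that median than above it, 23, 20, 22 and 18 of 27, and with TMM scaling 22, 19, 22 and 18.

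MVK had a positive estimate in all 4 conditions, 0.55 in siCTU2, 0.37 in siGL2, 0.72 in mQ and 0.50 in pQ (edgeR adjusted p = 0.0893, 0.434, 0.0852 and 0.116). In pQ, where same-numbered libraries deviated together, it passed with the replicate block (0.49, edgeR adjusted p = 0.0289), the 1 member to do so there. In mQ it also passed with DESeq2 and with no low-count filter (adjusted p = 0.0398 and 0.0135). At 5 h in pQ 68.2% ± 21.9 of MVK was left in the T arm and 96.6% ± 37.7 in the TCHX arm (SD, n = 3, of the T arm mean at 0 h). Replicate 3 was the highest there in both arms, at 22.1 CPM against 11.3 and 11.2 CPM (T) and at 32.1 CPM against 14.5 and 17.6 CPM (TCHX). TM7SF2 also had a positive estimate in all 4, 0.68, 0.99, 0.27 and 1.03, with SEs of 0.33, 0.41, 0.33 and 0.41. Without replicate 3 of siGL2, 3 members passed there, against 19.6% of all genes, MVK (0.55), TM7SF2 (1.70) and FADS2 (-0.56). FADS2 and PMVK had negative estimates in siGL2 (-0.54 and -0.24) and in mQ (-0.62 and -0.30), and MVD had -0.20 in pQ. INSIG1, whose estimates were -0.37 in siGL2 and 0.31 in pQ with an SE of 0.18 in both, stood at 42.0%, 60.1% and 34.7% of the T arm mean at 0 h in the siGL2 TCHX libraries at 3 h and at 34.8%, 50.7% and 44.7% in the pQ ones.

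In mQ the count of 0 changed with the T library at 5 h, replicate 3. In that library HMGCS1, INSIG1 and SQLE were at 70.2, 30.5 and 40.9 CPM, against 11.1 and 12.7, 7.34 and 8.0, and 10.5 and 11.6 CPM in the other two. Without it 4 members were higher with cycloheximide, MVK by 1.04, TM7SF2 by 0.75, INSIG1 by 0.55 and SQLE by 0.49 (log2; edgeR adjusted p = 0.000274, 0.0459, 0.00712 and 0.014). Over all genes 21.4% passed without it, so 4 of 27 is not above the background. The same-numbered TCHX library at 5 h was kept, where MVK was at 37.9 CPM, against 21.9 and 23.7 CPM in the other two. Without replicate 3 in both arms 5 members were higher (MVK by 0.90, TM7SF2, HMGCS1, INSIG1 and SQLE), where 24.5% of all genes passed. What set the T library at 5 h, replicate 3, apart was not tested. In siCTU2 and pQ the count stayed 0 without the libraries that stood apart.

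**Figure D4:**
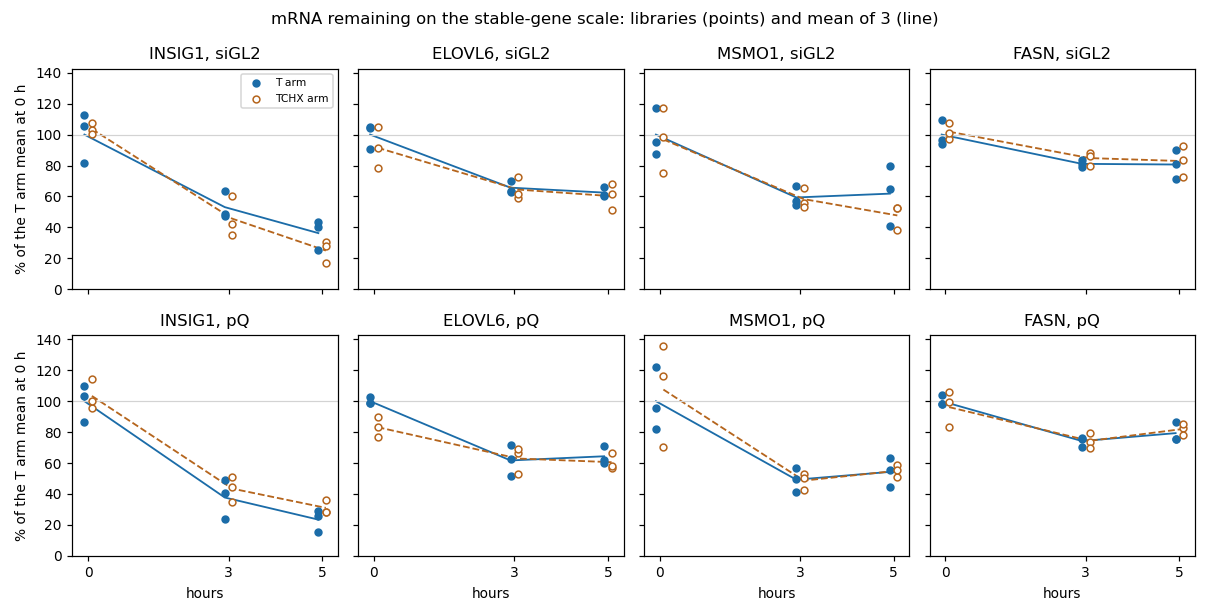
Percent of the T arm mean at 0 h against hours in siGL2 (top) and pQ (bottom) for INSIG1, ELOVL6, MSMO1 and FASN; points are libraries, 3 at each time, lines are means, filled and solid for the T arm, open and dashed for the TCHX arm. INSIG1 falls to 36.3% in siGL2 and 23.4% in pQ at 5 h in the T arm, while FASN stays at 80.6% and 79.3%.

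Whether the cycloheximide effect itself changed with CTU2 or glutamine was tested over the 36 libraries of each experiment. No member passed for siCTU2 against siGL2 or for mQ against pQ (edgeR, 28 tested in each, 1 and 0 at an unadjusted p under 0.05), where 54 of 14259 (0.379%) and 0 of 14177 genes passed over the whole table. DESeq2 gave 0 members in both. An index of translation-dependent decay was built per replicate from the levels in the 2 arms. It gave 0 of 27 members at an unadjusted p of 0.05 or less (linear model) in either experiment. Over all genes 8.15% and 4.78% had such a p, and 0 passed after adjustment. The index included the 3 libraries that stood apart and was not computed without them. In mQ, HMGCS1 had index values of 0.28, 0.16 and -1.05 in replicates 1, 2 and 3, and INSIG1 of 0.16, 0.16 and -0.35.

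The tRNAs that CTU2 modifies read the codons AAA, GAA and CAA. Together these made up a median of 4.04% of codons in the 30 genes, against 6.63% in 10728 tested genes with a coding sequence in GENCODE v44, and 1 member, IDI1 with 10.2%, lay above their upper quartile of 10.1%. Among the genes that were lower in siCTU2, HMGCS1 had 7.69%, SC5D 4.68%, MVK 3.79%, FADS1 2.59%, MVD 1.75% and FASN 1.15%. TM7SF2 and SREBF1, which were higher, had 1.67% and 1.22%. The lower genes thus held both the highest share and the lowest share of the 30. The 2 directions overlapped through FASN alone, since the other lower genes lay above TM7SF2 and SREBF1. Whether codon content bears on these changes was not tested.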

How the data were processed

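Reads of 72 QuantSeq 3′ libraries were trimmed with fastp 0.20.1, aligned with HISAT2 2.2.1 and counted with HTSeq 0.13.5 (submitters' processing notes, GRCh38.p13), and the authors deposited raw counts per gene. ERCC spike-ins were added to the RNA and are not analysed here. CPM was computed from the deposited counts and library totals. Tests were fitted across all genes that passed filterByExpr with the quasi-likelihood test of edgeR 4.0.16 (R 4.3.3), Benjamini-Hochberg adjusted, threshold 0.05. Counts were scaled by TMM at 0 h and, after triptolide, by 197 (siRNA) or 81 (medium) stable genes, chosen after the study's methods and holding no member. The index of translation-dependent decay was a linear model per gene. Alternatives were DESeq2 1.42.0, other scalings, filters, arms and times, a 1.5-fold threshold, left-out libraries and the replicate number as a block. The scripts were tested on simulated data.

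All 30 members are named. At 0 h, values per library are given for the 6 with the smallest p in a comparison, and for decay and cycloheximide values are given for the 5 with the smallest p in siGL2 and pQ. Other pathway genes are those with the largest change, at most 4 in each direction, and some of them are not reported here. The members and lists were chosen with earlier results of these data known. Correlations of same-numbered libraries' deviations were all over 0.1 for 3 h against 0 h in siCTU2 and pQ (lowest 0.14), and for TCHX against T at both 3 h and 5 h in pQ. They were not at both times in siCTU2, siGL2 and mQ (lowest -0.32, 0.0690 and 0.0512), nor for the 0 h groups (lowest 0.0836 in the siRNA and -0.15 in the medium experiment), and the block is printed beside the results it pairs.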

Additional observations from a re-analysis of the deposited data

How the results depend on the processing

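At 0 h the count of members called in siCTU2 was 14 with both arms, 2 against a 1.5-fold change and 3 to 10 with a replicate left out. Over all genes 50.2%, 7.99% and 23.3% to 29.3% passed in these settings. In mQ it was 3 with the replicate block, 3 in the TCHX arm, 0 against a 1.5-fold change and 1 to 5 with a replicate left out, and for the difference of the responses 4 in the TCHX arm, 2 against a 1.5-fold change and 2 to 6 with a replicate left out. In the same order, 19.9%, 6.47%, 2.37% and 3.97% to 21.0% of all genes passed in mQ. For the difference it was 23.2%, 10.4% and 14.0% to 26.7%. For decay, TMM left 0 calls in siCTU2, 0 in siGL2, 0 in mQ and 1 in pQ, since it centres the median of all genes, and the stricter set of stable genes (8 and 3 genes) gave 12, 13 and 25 in siCTU2, siGL2 and mQ. Over all genes TMM called 9.39%, 9.57%, 7.30% and 9.31%, and the stricter set 60.2%, 63.6% and 84.9%. The change to 5 h gave 12, 9 and 3 in siCTU2, siGL2 and mQ, where 65.2%, 48.5% and 45.3% of all genes passed. In siCTU2 the TCHX arm gave 0, no low-count filter 4, DESeq2 4, the replicate block 4 and leaving out the library that stood apart 5. The shares over all genes were 3.79%, 17.9%, 21.2%, 40.5% and 39.8%. With a replicate left out the decay counts were 0 to 9 in siCTU2, 0 to 13 in siGL2, 0 to 14 in mQ and 2 to 18 in pQ. For cycloheximide, siCTU2 gave 1 at 5 h alone, 2 with no filter and 1 (MVK) with the replicate block, where 19.4%, 11.5% and 21.8% of all genes passed. TMM gave 3 in siGL2 and 3 in mQ, all lower with cycloheximide, and leaving out a replicate gave 0 to 3 in siGL2 and 0 to 5 in mQ, the 5 all higher. Over all genes TMM called 13.1% and 8.88%. Leaving out a replicate called 5.14% to 19.6% in siGL2 and 0.00749% to 24.5% in mQ. In mQ the stricter stable set, no filter, DESeq2 and the replicate block gave 1 each (MVK) and leaving out the library that stood apart 4, all higher. In pQ the stricter stable set, no filter and the replicate block gave 1 each. These were PMVK, lower (-0.54), TM7SF2, higher (1.03), and MVK, higher (0.49). In the same order, 9.32%, 6.09%, 4.35%, 7.51% and 21.4% of all genes passed in mQ. In pQ 17.6%, 6.68% and 16.3% did. The cause of these moves was not tested.

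Under at least 1 alternative the 0 h estimates of 9 of 27 members in siCTU2, 13 in mQ and 12 for the difference changed sign. Those called in the reported fit or in that alternative were TM7SF2 in mQ (-0.59 in the TCHX arm), SC5D in mQ (0.51 in that arm without pQ replicate 3) and SREBF1 in the difference of responses (-0.48, and -0.22 without that library). With TMM, which shifts all genes alike, 21, 20, 17 and 17 of 27 decay estimates were positive in siCTU2, siGL2, mQ and pQ. The called ones among them were FASN in siCTU2 (0.18), FDPS in siGL2 (0.11), PMVK (0.16), FDPS (0.13), SCAP (0.21), FASN (0.23), ACLY (0.22) and ELOVL6 (0.18) in mQ, and MVD (0.10), FDPS (0.19), EBP (0.13), SCAP (0.31), ACAT2 (0.17), FASN (0.27), SCD (0.0807), ACLY (0.0624) and FADS1 (0.22) in pQ. In mQ, cycloheximide estimates turned positive without replicate 3 for HMGCS1, SQLE and INSIG1, which with a replicate left out ranged from -0.66 to 0.54, from -0.18 to 0.43 and from -0.16 to 0.46, and without the library that stood apart for SQLE (0.49) and INSIG1 (0.55). For the 0 h groups the libraries were not treated as pairs, since not all correlations of same-numbered libraries' deviations were over 0.1 (0.0836 to 0.26 and -0.15 to 0.11). Each siCTU2 library at 0 h still correlated best with the same-numbered siGL2 library, as did siGL2 at 3 h with siGL2 at 0 h. The block gave 11 calls in siCTU2 and 8 for the difference, where 41.5% and 32.7% of all genes passed. For decay it gave 6 in siGL2 and 13 in mQ, where 38.2% and 58.2% of all genes passed. Depth limits LSS, NSDHL, ACACA, TM7SF2 and STARD4.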
